A study of Mus musculus with 8 samples.

Results

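Lymphocytes enter lymph nodes (LN) through high endothelial venules, and the genes described here are 10 of the genes that such vessels use to slow, hold and pass blood leukocytes. They are *Glycam1*, *Madcam1* and *Cd34*, whose products can carry the sugars that L-selectin binds, *Fut7*, a fucosyltransferase that makes those sugars, *Sele* and *Selp*, which encode E-selectin and P-selectin, *Vcam1* and *Icam1*, which encode integrin ligands, and *Pecam1* and *Cdh5*, which encode proteins of endothelial cell contacts. The genes were chosen by name for these roles, as 10 of the 12393 genes that have a probe set of their own on the array. Each is given by its brightest probe set, that is, the one with the highest mean over the 8 arrays among the probe sets paired with that gene alone. Each of the 10 genes had such a probe set, and they have 14 in all, since *Vcam1* has 3 and *Selp* and *Cdh5* have 2 each.

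LN RNA was measured on Affymetrix mouse arrays, 1 array for each pool of at least 3 mice, so the spread between mice within a pool is not seen. The mice were C57Bl/6, female and male, and 8 weeks old, either wild type (WT) or H3RKO, which lack the histamine H3 receptor because *Hrh3* was disrupted in every cell of the body by gene targeting. They were left untreated (2 arrays of each genotype) or injected 24 h earlier with complete Freund's adjuvant, an emulsion of oil and killed mycobacteria (CFA, 1 array of each genotype), or with CFA and pertussis toxin (CFA+PTX, 1 array of each genotype), the adjuvants used to induce experimental autoimmune encephalomyelitis. The titles of both CFA+PTX arrays name PTX alone while their descriptions name both agents, and the descriptions are followed here. The design asks whether the receptor alters LN gene expression at rest and early after injection. Nothing in the labels ties an untreated array of one genotype to one of the other. The p-values rest on these few pools and do not measure the spread between mice. In the comparisons of treatments and in that of genotypes over all treatments, the error also holds any genotype difference in the response to an injection.

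High endothelial venules are lined by tall endothelial cells found in LN and other organized lymphoid tissue. Circulating lymphocytes roll on their sulfated and fucosylated glycoproteins through L-selectin, stop when chemokines such as those that bind CCR7 switch on their integrins, and then cross the vessel wall between or through endothelial cells. Lymphotoxin signals through NF-kappaB maintain this vessel type, whereas E-selectin, P-selectin, VCAM-1 and ICAM-1 are best known as endothelial molecules that inflammatory cytokines can induce. Several of these genes are also active outside vessels. *Vcam1* and *Icam1* are made by stromal cells and macrophages of the LN, *Fut7* by leukocytes, *Selp* and *Pecam1* by platelets and their precursors, *Cd34* by mast cells and stem cells, and *Glycam1* by the mammary gland.

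RefSeq promoter sequence (build GRCm38.p6, from 250 bases before to 50 after a start site) was matched by symbol to 7 of the 10 genes, with 2 start sites for *Fut7*; *Vcam1*, *Pecam1* and *Cdh5* had no entry. The motifs searched on both strands were the named kappaB consensus of 10 letters, which NF-kappaB proteins can bind, AGGAAG, a core that ETS factors can bind, and TGANTCA, which AP-1 factors can bind. The promoters of the genes with the widest ranges of signal over the arrays, *Madcam1*, *Selp* and *Sele*, are shown because these genes set the limits of what the arrays could resolve. The 250 bases before each start are printed 5′ to 3′ on the plus strand, from chr10:79664309-79664558 for *Madcam1*, chr1:164115014-164115263 for *Selp* and chr1:164047984-164048233 for *Sele*, and capitals mark motif matches.
Madcam1: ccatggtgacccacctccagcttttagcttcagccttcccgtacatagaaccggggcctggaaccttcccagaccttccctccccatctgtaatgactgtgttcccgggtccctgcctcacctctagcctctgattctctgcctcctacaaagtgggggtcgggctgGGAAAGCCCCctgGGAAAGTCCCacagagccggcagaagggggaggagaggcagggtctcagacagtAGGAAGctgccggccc
Selp: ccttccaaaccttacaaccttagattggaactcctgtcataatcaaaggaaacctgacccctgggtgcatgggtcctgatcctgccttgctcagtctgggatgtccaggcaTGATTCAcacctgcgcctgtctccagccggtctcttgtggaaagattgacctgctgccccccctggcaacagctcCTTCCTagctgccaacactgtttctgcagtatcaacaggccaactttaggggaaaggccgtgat
Sele: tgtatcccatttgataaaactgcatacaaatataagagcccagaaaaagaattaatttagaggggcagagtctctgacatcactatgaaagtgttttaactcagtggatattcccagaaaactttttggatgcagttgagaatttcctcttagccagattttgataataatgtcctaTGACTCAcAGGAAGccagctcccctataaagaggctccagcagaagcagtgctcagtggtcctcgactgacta
*Madcam1* alone of the 7 genes held the kappaB consensus, as GGAAAGCCCC 83 bases and GGAAAGTCCC 70 bases before the start, both read on the reverse strand. Of 32851 promoters of this length, 8.46% held at least 1 match and 1.22% held 2 or more. AGGAAG was present in 6 of the 7 genes and in 35.4% of all promoters, and *Selp* had a further match after its start that is not printed. TGANTCA was present in *Sele* and *Selp* and in 7.81% of all promoters. No match in capitals overlapped another. A match describes letters in this window and does not show that a factor binds there.

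The arrays were alike in general, with correlations of 0.990 to 0.998 between pairs. The *Hrh3* probe set read 6.56 to 6.66 in the WT arrays and 7.20 to 7.29 in the H3RKO arrays on the log2 scale, but its place relative to the disrupted part of the gene is not given in the sources used here, so it checks no label. One array stood furthest apart. The mean log2 signal of 13 salivary and lacrimal gland genes was 5.23 in WT CFA+PTX, 8.54 in WT untreated replicate 1 and 11.20 to 11.99 in the remaining arrays. Because the array at 5.23 is also the only WT CFA+PTX array, the values of the 10 genes and of the gene lists after CFA+PTX are also given without it below, and those of the 10 genes with the gland mean as a covariate. The mean of 11 adipocyte genes was highest in WT untreated replicate 1 (10.81, and 10.70 or less elsewhere). Defining markers of the LN were present, since *Cd3e* of T cells read 10.29 to 10.61 and *Cxcl13* of follicular stroma 12.63 to 13.26.

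Over the 8 arrays, *Glycam1* had a higher mean signal than 99.2% of the 22626 probe sets tested, *Vcam1* than 96.7%, *Pecam1* than 88.6%, *Icam1* than 86.9%, *Cdh5* than 72.3%, *Cd34* than 71.0%, *Fut7* than 62.5%, *Madcam1* than 57.6% and *Selp* than 49.4%. *Sele* stood lowest, above only 11.2%, at a level where no call of signal over background is given. These shares place each probe set among all others and do not rank the genes by abundance, since probe sets differ in brightness. The range over the 8 arrays was 0.28 to 1.08 log2 units for the 10 genes, with a median of 0.62, against 0.30 for all genes, and 9 of the 10 exceeded that all-gene median. *Madcam1* varied most (1.08, or 2.12-fold), followed by *Selp* (0.96) and *Sele* (0.72), and *Icam1* least (0.28). The plot of log2 signal by group shows every array.

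**Figure D1:**
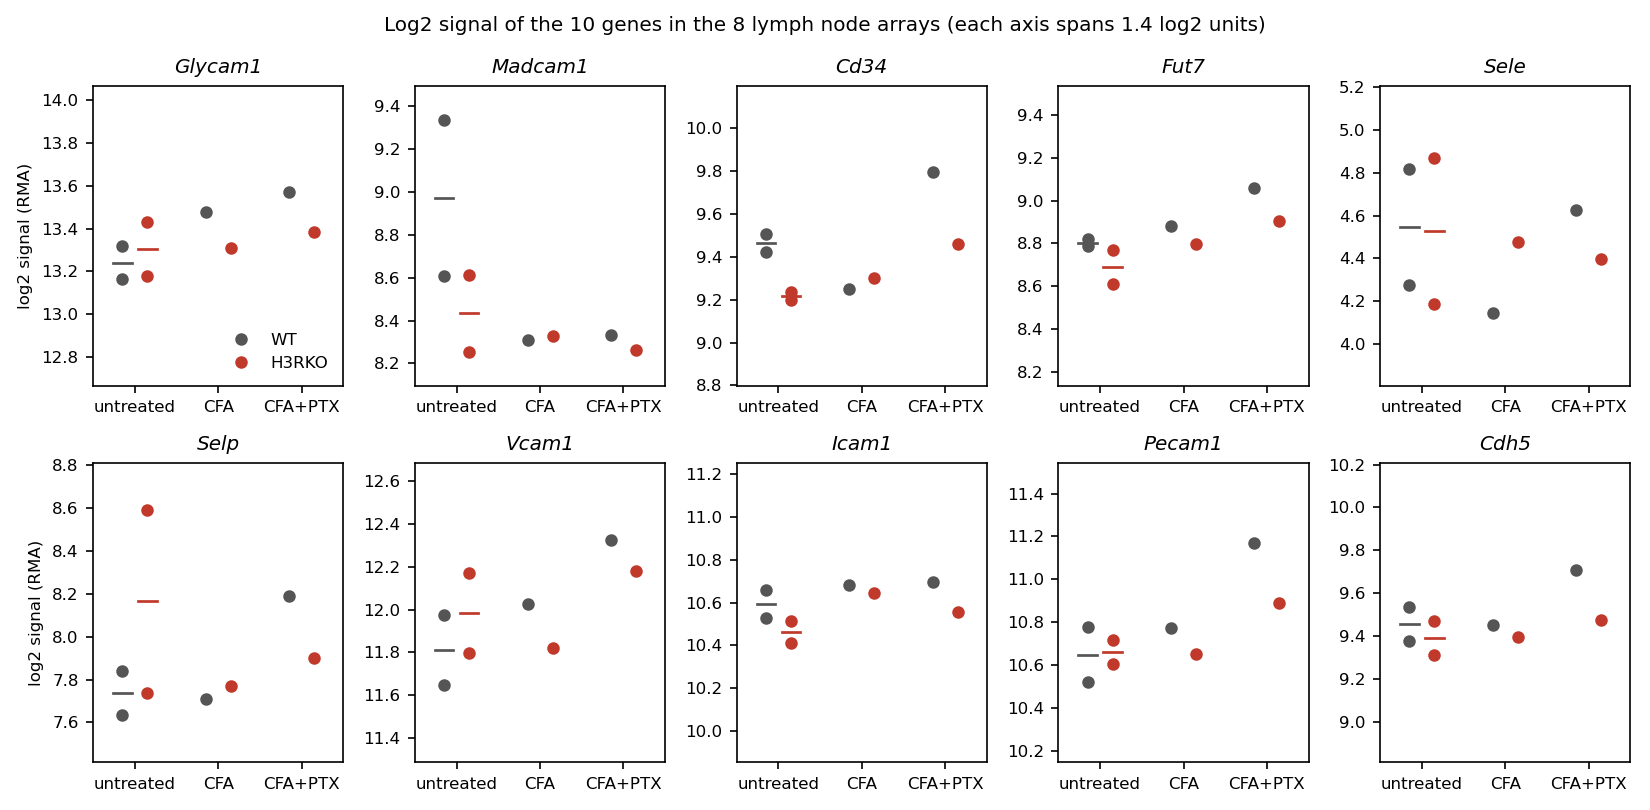
Log2 signal (vertical axis, 1.4 log2 units in every panel) of each of the 10 genes in untreated, CFA and CFA+PTX lymph node, with 1 point per array, grey for WT and red for H3RKO, and a short line for the average of each untreated pair. The WT CFA+PTX point is the top one for 7 genes, *Madcam1* peaks in 1 untreated WT array (9.34), and *Selp* and *Sele* peak in an untreated H3RKO array (8.59 and 4.87).

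Among the L-selectin ligands, *Glycam1*, a secreted mucin of high endothelium, read 13.16 and 13.32 in WT untreated, 13.48 in WT CFA, 13.57 in WT CFA+PTX, 13.43 and 13.18 in H3RKO untreated, 13.31 in H3RKO CFA and 13.38 in H3RKO CFA+PTX. Both injected WT arrays lay above the untreated WT pair, whereas both injected H3RKO arrays lay between the untreated H3RKO ones. Injected arrays exceeded untreated ones by 0.16 ± 0.08 (SE; adjusted p = 0.536, limma), which did not pass the test. Of 15 milk and mammary epithelium genes, which mark the other known source of *Glycam1*, 14 had a mean in the lower 50% of probe sets, among them the casein gene *Csn2* at 4.74 to 6.30. The exception was *Xdh*, a milk fat globule enzyme that other tissues also make, with 79.2% of probe sets dimmer and its highest value in WT CFA+PTX (10.73), the array where *Glycam1* was highest too. The keratin genes *Krt8* and *Krt18* reached 8.91 and 8.86 in WT untreated replicate 2, where the mean of the 15 was highest (6.83, and 6.05 at the lowest), and the part of mammary tissue in the *Glycam1* signal was not tested.

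*Madcam1*, the addressin that binds the integrin alpha4beta7 and can also carry L-selectin ligands, varied most. It read 9.34 and 8.61 in WT untreated, 8.31 in WT CFA, 8.33 in WT CFA+PTX, 8.61 and 8.25 in H3RKO untreated, 8.33 in H3RKO CFA and 8.26 in H3RKO CFA+PTX. The 4 injected arrays lay close together at the low end, while the untreated arrays spread from below them to far above. The difference of injected from untreated arrays was −0.39 ± 0.18 (SE; adjusted p = 0.488, limma), and an exact permutation test over 4 against 4 arrays gave a two-sided p = 0.143. Without WT untreated replicate 1, the array with the highest adipocyte signal, the difference was −0.20. *Madcam1* correlated with the adipocyte mean at r = 0.80 over the 8 arrays, which share their groups, and with that mean as a covariate its difference of injected from untreated arrays was −0.08. The adipocyte genes were themselves lower in injected arrays (1 of 11 higher, median −0.30), so this covariate overlaps with treatment. The part of fat tissue in the *Madcam1* signal was not tested. *Madcam1* is the gene with 2 kappaB matches in the promoter printed above, and these arrays did not measure NF-kappaB binding.

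*Cd34*, a sialomucin of blood vessels that carries L-selectin ligands on high endothelium, read 9.42 and 9.51 in WT untreated, 9.25 in WT CFA, 9.80 in WT CFA+PTX, 9.23 and 9.20 in H3RKO untreated, 9.30 in H3RKO CFA and 9.46 in H3RKO CFA+PTX. The untreated pairs were tight and the H3RKO pair lay below the WT pair; CFA+PTX was the highest array of each genotype, and CFA lay below the untreated pair in WT and above it in H3RKO. *Fut7* read 8.79 and 8.82 in WT untreated, 8.88 in WT CFA, 9.06 in WT CFA+PTX, 8.77 and 8.61 in H3RKO untreated, 8.80 in H3RKO CFA and 8.90 in H3RKO CFA+PTX. In each genotype both injected arrays were above both untreated arrays, with CFA+PTX the higher, but the H3RKO CFA array was not above the brightest WT untreated one, so the untreated and injected arrays overlapped. For *Fut7* the exact permutation test of injected against untreated arrays gave the lowest p of the 10 genes (two-sided p = 0.0571, where the smallest possible p is 0.0286).

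The selectins of activated endothelium spread widely within groups. *Selp*, stored in endothelial and platelet granules as P-selectin, read 7.63 and 7.84 in WT untreated, 7.71 in WT CFA, 8.19 in WT CFA+PTX, 7.74 and 8.59 in H3RKO untreated, 7.77 in H3RKO CFA and 7.90 in H3RKO CFA+PTX. A single untreated H3RKO array was thus the highest and lay 0.85 above its partner. The second *Selp* probe set, which was dimmer, correlated with it at r = 0.65 over the 8 arrays and was highest in WT CFA+PTX (5.75). *Sele* read 4.82 and 4.28 in WT untreated, 4.14 in WT CFA, 4.63 in WT CFA+PTX, 4.19 and 4.87 in H3RKO untreated, 4.48 in H3RKO CFA and 4.40 in H3RKO CFA+PTX. Its values in the 4 injected arrays all lay within the span of the untreated arrays except WT CFA, which was just below it. The mean of 9 platelet and megakaryocyte genes was lowest in H3RKO untreated replicate 1 (6.82) and highest in H3RKO CFA+PTX (7.30), where *Selp* was neither highest nor lowest.

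The integrin ligands were bright in every array. *Vcam1*, the ligand of alpha4beta1, read 11.97 and 11.65 in WT untreated, 12.03 in WT CFA, 12.33 in WT CFA+PTX, 12.17 and 11.80 in H3RKO untreated, 11.82 in H3RKO CFA and 12.18 in H3RKO CFA+PTX. *Icam1*, the ligand of LFA-1, read 10.66 and 10.53 in WT untreated, 10.68 in WT CFA, 10.70 in WT CFA+PTX, 10.41 and 10.51 in H3RKO untreated, 10.65 in H3RKO CFA and 10.56 in H3RKO CFA+PTX. CFA+PTX lay above the untreated pair of its genotype for both genes, barely so for *Vcam1* in H3RKO, and the injected and untreated arrays overlapped for both. The 3 *Vcam1* probe sets tracked each other (r = 0.85 to 0.94 over 8 arrays), though the dimmest of them was highest in H3RKO untreated replicate 1 (10.79). *Icam1* spanned less than any other of the genes, and its injected arrays exceeded the untreated ones by 0.12 ± 0.06 (SE; adjusted p = 0.512, limma).

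The junction genes had similar profiles. *Pecam1*, which encodes CD31 and takes part in transmigration, read 10.78 and 10.52 in WT untreated, 10.77 in WT CFA, 11.17 in WT CFA+PTX, 10.72 and 10.60 in H3RKO untreated, 10.65 in H3RKO CFA and 10.89 in H3RKO CFA+PTX. *Cdh5*, which encodes VE-cadherin of endothelial adherens junctions, read 9.53 and 9.37 in WT untreated, 9.45 in WT CFA, 9.71 in WT CFA+PTX, 9.47 and 9.31 in H3RKO untreated, 9.39 in H3RKO CFA and 9.47 in H3RKO CFA+PTX. For both genes the CFA arrays lay between the untreated arrays of their genotype and the CFA+PTX arrays above them, narrowly so for *Cdh5* in H3RKO. The pair had the highest correlation among the 10 genes (r = 0.92, rho = 0.93 over 8 arrays that share their groups), followed by *Vcam1* with *Pecam1* (r = 0.89). The dimmer *Cdh5* probe set correlated with the brighter one at r = 0.63.

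Injection of either kind was compared with no injection in a model that allows for genotype, and none of the 10 genes passed. Of all 12393 genes, 0.0323% (4 genes) passed at an adjusted p under 0.05. In injected LN, 7 of the genes lay higher and 3 lower, with a median difference of 0.11 against 0.01 for all genes. At an unadjusted p under 0.05, with no call made from it, stood 2 of the 10, *Fut7* (0.16 ± 0.06, SE; adjusted p = 0.376, limma) and *Pecam1* (0.22 ± 0.08, SE; adjusted p = 0.410, limma), where 11.1% of all genes stood. The *Pecam1* difference was 0.14 without WT untreated replicate 2. The 95% intervals of all 10 differences lay within 2-fold in either direction, from −0.83 for *Madcam1* to 0.48 for *Vcam1*, so a 2-fold change of any of them over both injections would fall outside its interval. None of the 10 had all injected arrays above or below all untreated ones, whereas 6.29% of all genes did.

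After CFA alone the differences of the genes from untreated centred on 0. None passed, as was true of all genes (0%), and none stood at an unadjusted p under 0.05 (6.08% of all genes did). There were 6 genes above and 4 below untreated, with a median difference of 0.01, equal to that of all genes. The differences ran from −0.38 ± 0.23 for *Madcam1* to 0.14 ± 0.07 for *Icam1* (SE; adjusted p = 0.868 and 0.842, limma). Both CFA arrays lay above both untreated arrays of their genotype for *Fut7* and *Icam1*, 2 of the 10, compared with 13.4% of all genes, and for none of the 10 did both lie below (9.85% of all genes). *Cd34* differed by −0.06 ± 0.09 (SE), a value that was 0.10 without the WT CFA array and −0.23 without the H3RKO one. For *Madcam1* it was −0.18 without the WT CFA array and −0.58 without the H3RKO one, and for *Icam1* 0.09 without the H3RKO CFA array.

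The differences from untreated were larger in the median after CFA+PTX, yet none of the genes passed here either, nor did any gene on the array (0%). Higher values were seen for 8 of the 10 and lower ones for 2, with a median difference of 0.19 against 0.01 for all genes. *Pecam1* was 0.37 ± 0.10 higher (SE; adjusted p = 0.255, limma), *Vcam1* 0.36 ± 0.15 (adjusted p = 0.401), *Cd34* 0.29 ± 0.09 (adjusted p = 0.291) and *Fut7* 0.23 ± 0.07 (adjusted p = 0.273). These 4 stood at an unadjusted p under 0.05, as did 13.1% of all genes. The other *Vcam1* probe sets gave 0.26 ± 0.18 and 0.12 ± 0.20 (SE), and neither stood at an unadjusted p under 0.05. The junction gene *Cdh5* was 0.17 ± 0.08 higher, *Glycam1* 0.20 ± 0.10 and *Icam1* 0.10 ± 0.07, while *Madcam1* was −0.41 ± 0.23, *Selp* 0.09 ± 0.25 and *Sele* −0.03 ± 0.23 from untreated. In both genotypes the CFA+PTX array lay above both untreated arrays for 6 of the 10, *Cd34*, *Fut7*, *Vcam1*, *Icam1*, *Pecam1* and *Cdh5*, compared with 19.9% of all genes, and below both for 0 of the 10 (16.9%). For *Vcam1* and *Cdh5* this held for the brightest probe set only. In their other probe sets the H3RKO CFA+PTX array lay between the untreated H3RKO arrays.

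The size of the CFA+PTX difference depended in part on 1 array. WT CFA+PTX, which stood apart in its gland genes, was the highest of the 8 arrays for 7 of the 10 genes, *Glycam1*, *Cd34*, *Fut7*, *Vcam1*, *Icam1*, *Pecam1* and *Cdh5*, and for 22.9% of all genes. Within WT, 9 of the 10 were higher in CFA+PTX than the untreated mean with a median difference of 0.29, and within H3RKO 7 of the 10 with a median of 0.09. Without WT CFA+PTX, 7 of the 10 were higher than untreated with a median of 0.10. *Pecam1* was then at 0.25 and *Cd34* at 0.19, *Glycam1* was at 0.12 and *Cdh5* at 0.08, and *Selp* lay at −0.21. *Fut7* was at 0.21, *Vcam1* at 0.26 and *Icam1* at 0.08, while *Madcam1* was at −0.26 and *Sele* at −0.19. *Madcam1* was at −0.21 without WT untreated replicate 1. Without H3RKO CFA+PTX the median was 0.27. With the gland mean as a covariate 8 of the 10 were higher, with a median of 0.14, and 2 rather than 4 stood at an unadjusted p under 0.05. The macrophage mean was also highest in WT CFA+PTX (10.32 against 9.94 to 10.20), as was that of mast cells and progenitors that carry *Cd34* (8.23 against 7.87 to 8.14). So were the means of fibroblastic reticular and follicular dendritic cells (11.21 against 11.08 to 11.18) and of lymphatic endothelium (9.28 against 8.87 to 9.09). The B cell mean was lowest there (11.21 against 11.33 to 11.52). The part of these cells in the signal of the 10 genes, among them *Vcam1*, *Icam1* and *Cd34*, was not tested.

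CFA+PTX was also set against CFA, a comparison that shares the CFA+PTX arrays with the one before. None of the genes passed (0% of all genes did), while 8 exceeded their CFA level and 2 did not, with a median difference of 0.18 against 0.00 for all genes. *Cd34* was 0.35 ± 0.10 higher and *Pecam1* 0.32 ± 0.12 (SE; adjusted p = 0.891 for both, limma), and these 2 stood at an unadjusted p under 0.05, as did 5.99% of all genes. The median was 0.10 without WT CFA+PTX. The *Cd34* difference was 0.19 without WT CFA and 0.52 without H3RKO CFA, and that of *Pecam1* was 0.19 without WT CFA+PTX. With the gland mean as a covariate 7 were higher and 3 lower, the median was 0.10, and 0 stood at an unadjusted p under 0.05.

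**Figure D2:**
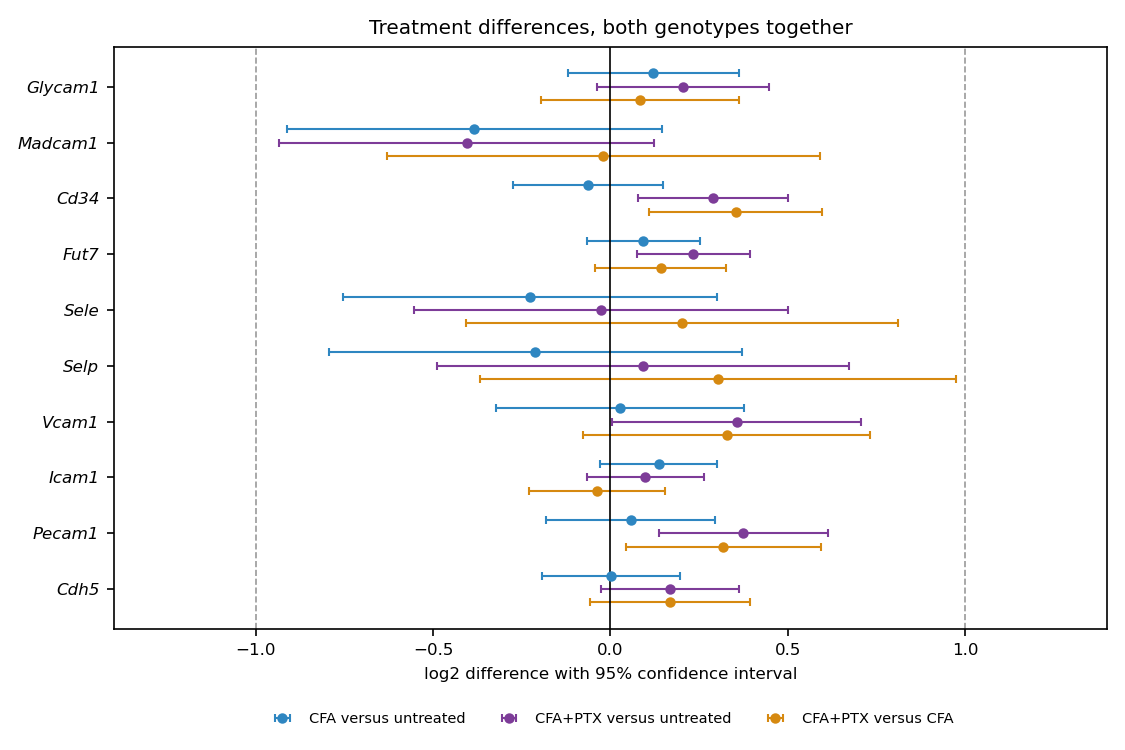
Log2 difference (horizontal axis) with its 95% confidence interval for each of the 10 genes, for CFA against untreated (blue), CFA+PTX against untreated (purple) and CFA+PTX against CFA (orange), over both genotypes, with dashed lines at a 2-fold difference. *Pecam1*, *Cd34*, *Fut7* and *Vcam1* after CFA+PTX have intervals above 0 against untreated, and no interval reaches a 2-fold difference.

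Other genes of blood endothelium were also highest in WT CFA+PTX. The mean of 23 general endothelial genes, none of them among the 10, was 9.32 and 9.17 in WT untreated, 9.22 in WT CFA, 9.50 in WT CFA+PTX, 9.21 and 9.15 in H3RKO untreated, 9.16 in H3RKO CFA and 9.28 in H3RKO CFA+PTX. WT CFA+PTX was the highest array for 19 of the 23. In CFA+PTX against untreated 21 of the 23 were higher, with a median of 0.18, and none passed; the widest differences were those of *Sox17*, an arterial transcription factor (0.59 ± 0.12), *Cldn5*, a tight junction protein (0.34 ± 0.09), *Egfl7*, a secreted vessel protein (0.30 ± 0.09), and *Ramp2*, a receptor partner for adrenomedullin (0.30 ± 0.08, all SE). Without WT CFA+PTX, a setting chosen for the gene lists after seeing the data, 17 of the 23 were higher with a median of 0.12, and *Sox17* was at 0.40. In bulk LN RNA, more endothelial cells and more RNA of a gene per endothelial cell cannot be told apart.

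The 10 genes split by how closely they tracked this mean over the 8 arrays, which share their groups and, in WT CFA+PTX, 1 far point. *Cdh5* (r = 0.97), *Pecam1* (0.94) and *Cd34* (0.83) tracked it most closely, then *Fut7* (0.80) and *Vcam1* (0.76). *Glycam1* and *Icam1* were intermediate (0.52 each), and *Sele* (0.25), *Madcam1* (0.13) and *Selp* (0.05) did not track it. Other cell lists were tracked closely too. *Pecam1* correlated with the mean of lymphatic endothelium genes at r = 0.98 and with that of macrophage genes at 0.86, and *Vcam1* with the mean of leukocyte homing receptors at 0.86. *Cdh5* correlated with the lymphatic mean at 0.91, with the macrophage mean at 0.87 and with the gland mean at −0.92, but with no other list as strongly as with blood endothelium. *Cd34* correlated with the mean of other adhesion and transmigration genes of vessels at 0.87, and *Fut7* with the lymphatic mean at 0.80. The tracking of *Cdh5*, *Pecam1*, *Cd34*, *Fut7* and *Vcam1* is thus not particular to blood endothelium. After each array was centred on the endothelial mean, which moved the median of all genes by −0.18 in CFA+PTX against untreated, 5 of the 10 lay above untreated and 5 below, and their median was 0.01. *Madcam1* then had the lowest adjusted p of the 10 (0.116, limma) with a difference of −0.58, and none passed.

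**Figure D3:**
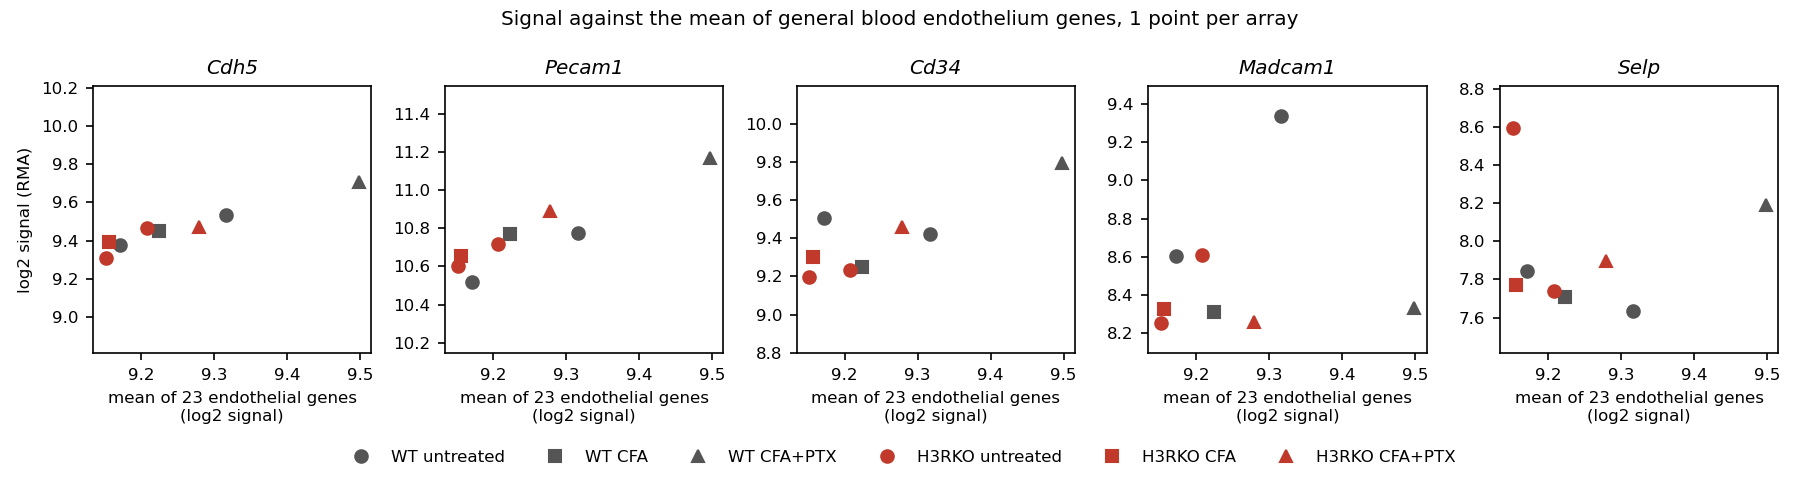
Log2 signal of 5 of the genes (vertical axes, 1.4 log2 units each) against the mean log2 signal of 23 general endothelial genes (horizontal axis), 1 point per array, circles for untreated, squares for CFA and triangles for CFA+PTX, grey for WT and red for H3RKO. *Cdh5*, *Pecam1* and *Cd34* lie near a rising line that ends at WT CFA+PTX (9.50 on the horizontal axis), whereas *Madcam1* and *Selp* show no such line.

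The genotypes were compared over all treatments and within each. Over all treatments none of the 10 passed, as for all genes (0%), with 2 higher and 8 lower in H3RKO and a median difference of −0.10 against −0.01 for all genes. *Cd34* was −0.19 ± 0.07 from WT (SE; adjusted p = 0.999, limma) and stood alone of the 10 at an unadjusted p under 0.05, as did 3.84% of all genes. Without WT CFA+PTX, 3 lay above WT and 7 below, and the median was −0.05. With the gland mean as a covariate 4 lay above and 6 below, the median was −0.03, and 0 stood at an unadjusted p under 0.05. None of the 10 had all H3RKO arrays above or below all WT arrays (1.86% of all genes did), and the lowest exact permutation p was that of *Icam1* (two-sided p = 0.114).

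In untreated LN none of the 10 passed the criterion of the study (a difference of more than 2-fold with an unadjusted p under 0.05), which 0.161% of all genes passed. In H3RKO, 4 lay higher and 6 lower, and the median was −0.04 against −0.02 for all genes. *Cd34* was −0.25 ± 0.09 from WT (SE; adjusted p = 0.916, limma), and only *Cd34* of the 10 stood at an unadjusted p under 0.05 (4.9% of all genes). Both H3RKO arrays lay below both WT arrays for *Cd34*, and narrowly so for *Fut7* (8.77 against 8.79 at the closest) and *Icam1* (10.51 against 10.53). With 2 arrays on each side such a split can readily arise from the order of the arrays alone. The share of all genes with such a split was not computed, so nothing is concluded from it. The widest differences were −0.54 ± 0.26 for *Madcam1* and 0.43 ± 0.28 for *Selp*, both within the spread of single untreated arrays. The *Madcam1* value was −0.17 without WT untreated replicate 1 and −0.90 without WT untreated replicate 2, and that of *Selp* was 0.0019 without H3RKO untreated replicate 2 and 0.86 without H3RKO untreated replicate 1. These intervals reached past 2-fold, to −1.18 for *Madcam1* and 1.12 for *Selp*, and those of the other 8 genes stayed inside it.

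After CFA none of the 10 passed that criterion (0.145% of all genes did) and none stood at an unadjusted p under 0.05 (2.35%), with 4 higher and 6 lower in H3RKO and differences from −0.21 ± 0.24 for *Vcam1* to 0.34 ± 0.39 for *Sele* (SE). After CFA+PTX none passed either (0.347% of all genes did), and all 10 were lower in H3RKO, with a median of −0.21 against −0.03 for all genes. *Cd34* was −0.33 ± 0.12 from WT (SE; adjusted p = 1, limma) and alone stood at an unadjusted p under 0.05, as did 3.36% of all genes, with *Pecam1* at −0.28 ± 0.17 and *Cdh5* at −0.24 ± 0.15. This comparison is of 1 array against 1 and takes its error from the untreated pairs. Of the general endothelial genes 22 of 23 were lower as well, with a median of −0.24, as were 11 of 12 macrophage genes (median −0.26), whereas all 13 gland genes were higher (median 7.64), and their part in the 10 lower values was not tested.

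The effect of each injection was also compared between genotypes. No interaction of the 10 genes passed the criterion of the study, either for CFA (0.412% of all genes) or for CFA+PTX (0.307%), and none stood at an unadjusted p under 0.05, as 4.36% and 2.45% of all genes did. For CFA+PTX, 9 of the 10 interactions were negative, that is, the signed difference from untreated was lower in H3RKO than in WT. The median of the 10 was −0.19 against −0.01 for all genes. The differences were of opposite sign for *Selp* (0.45 in WT, −0.27 in H3RKO) and *Sele* (0.08 in WT, −0.13 in H3RKO). The lowest interaction was that of *Selp* (−0.72 ± 0.48, SE). The *Selp* value was −1.15 without H3RKO untreated replicate 1, the lower array of that pair, and it then passed the criterion (unadjusted p = 0.0036, adjusted p = 1, limma). Intervals for interactions reached past 2-fold for 4 of the 10, so at this number of arrays a 2-fold interaction could not be told from none for those genes.

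**Figure D4:**
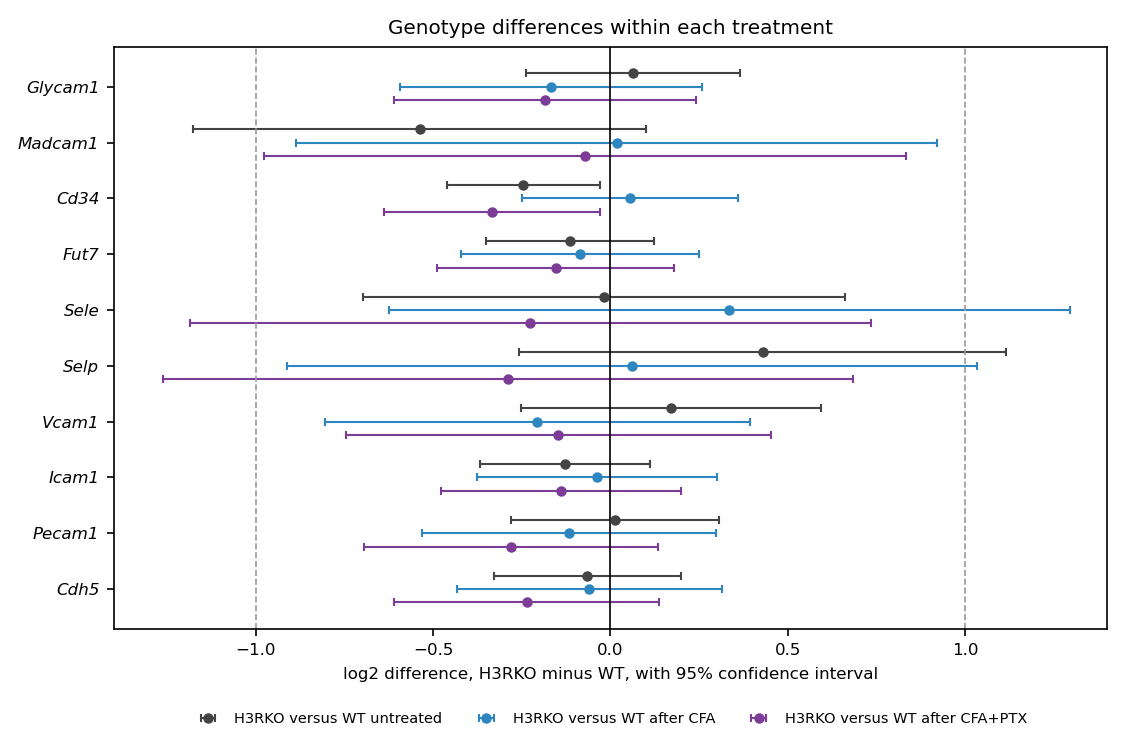
Log2 difference of H3RKO from WT (horizontal axis) with its 95% confidence interval for each of the 10 genes in untreated lymph node (dark grey), after CFA (blue) and after CFA+PTX (purple), with dashed lines at a 2-fold difference. Only *Cd34* has intervals that leave out 0, in untreated and CFA+PTX lymph node, and all 10 purple points lie below 0, at −0.33 to −0.07.

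Genes around the 10 in the homing pathway were read from lists chosen by function, and none of their members passed in any comparison of treatments. Of 13 genes of L-selectin ligand synthesis, 6 were higher and 7 lower after CFA+PTX, with a median of −0.02. *Chst4*, the sulfotransferase most specific to high endothelium, had the widest difference (0.41 ± 0.13, SE; adjusted p = 0.291, limma) and read 7.82 and 7.67 in WT untreated, 8.21 in WT CFA, 8.39 in WT CFA+PTX, 7.99 and 7.74 in H3RKO untreated, 8.00 in H3RKO CFA and 8.04 in H3RKO CFA+PTX. In both genotypes its injected arrays thus lay above the untreated pair, as they did for *Fut7*. The margin in H3RKO was narrow, with CFA at 8.00 against 7.99 in the brighter untreated array. *B3gnt3*, which extends the core 1 chains that *Chst4* sulfates, differed by 0.20 ± 0.08 (SE), and *Fut4*, the other fucosyltransferase of this route, by −0.11 ± 0.13 (SE). Without WT CFA+PTX these differences were 0.23 for *Chst4*, 0.08 for *B3gnt3* and −0.34 for *Fut4*, with 5 of the 13 higher and a median of −0.04.

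On the leukocyte side, 6 of 12 homing receptors were higher and 6 lower after CFA+PTX, with a median of 0.00. The chemokine receptors *Cxcr4* (0.56 ± 0.11, SE; adjusted p = 0.197, limma) and *Ccr7* (0.47 ± 0.07, SE; adjusted p = 0.136, limma) had the widest differences. *Ccr7* read 11.41 and 11.33 in WT untreated, 11.48 in WT CFA, 11.91 in WT CFA+PTX, 11.38 and 11.25 in H3RKO untreated, 11.37 in H3RKO CFA and 11.70 in H3RKO CFA+PTX. Its CFA+PTX arrays were the highest of each genotype, and CFA in H3RKO was inside the untreated pair. Without WT CFA+PTX *Cxcr4* was at 0.67 and *Ccr7* at 0.40, and 4 of the 12 were higher with a median of −0.05.

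Of 20 other adhesion and transmigration genes of vessels, 17 were higher after CFA+PTX, with a median of 0.11. *Ackr1*, a chemokine-binding receptor typical of venules, read 9.63 and 9.46 in WT untreated, 9.57 in WT CFA, 10.29 in WT CFA+PTX, 9.57 and 9.59 in H3RKO untreated, 9.45 in H3RKO CFA and 9.88 in H3RKO CFA+PTX, and differed by 0.53 ± 0.11 (SE; adjusted p = 0.202, limma). CFA+PTX was again the highest array of each genotype. *Jam2*, a junctional adhesion molecule, differed by 0.31 ± 0.12, and *Mcam*, an adhesion molecule of vessels and pericytes, by −0.24 ± 0.08 (SE). The *Jam2* value rested on WT CFA+PTX, which read 7.88 against 7.37 in H3RKO CFA+PTX and 7.25 to 7.36 in the untreated arrays. Without that array *Jam2* was at 0.06 and *Ackr1* at 0.33, and 13 of the 20 were higher with a median of 0.03.

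Signals that act on these vessels were mixed in direction. Of 19 NF-kappaB feedback and cytokine genes 10 were higher and 9 lower after CFA+PTX (median 0.04), with *Cxcl1*, a neutrophil chemokine, at 0.55 ± 0.22, and *Ccl2*, a monocyte chemokine, at −0.60 ± 0.26 (SE). Of 12 lymphotoxin pathway genes 7 were higher and 5 lower (median 0.04), with *Lta*, lymphotoxin alpha, at −0.32 ± 0.06 (adjusted p = 0.197, limma), and *Cxcl13*, the B cell chemokine, at 0.38 ± 0.10 (SE). Of 18 vascular growth genes 7 were higher and 11 lower (median −0.06), and *Thbs1*, the angiogenesis inhibitor thrombospondin 1, was at −0.69 ± 0.20 (SE). Among 8 lymphatic endothelium genes, which line the other vessels of the LN, 5 were higher (median 0.25), with *Reln* at 0.81 ± 0.16 and *Lyve1* at 0.43 ± 0.13, while *Prox1*, the factor that defines this cell type, was dim at 4.66 to 5.09 and differed by −0.14 ± 0.08 (SE). Without WT CFA+PTX the medians were −0.05 for the NF-kappaB genes (6 of 19 higher), −0.02 for the lymphotoxin genes (5 of 12), −0.09 for the vascular growth genes (5 of 18) and 0.19 for the lymphatic genes (5 of 8).

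For the genes with the widest ranges, the most similar patterns over the 8 arrays were sought among 12383 other genes. *Madcam1* was followed most closely by *Tm4sf5* (r = 0.98), *Uty* (0.98) and *Zfp975* (0.97), *Selp* by *Olr1* (0.92), *Ccdc47* (0.90) and *Slc37a2* (0.89), and *Sele* by *H2bc18* (0.97), *Arhgap20* (0.97) and *Gabrg1* (0.95). With 8 arrays and this many genes, values of this size describe the arrays' order and nothing more. The ranges of these genes were 0.16 to 0.70 log2 units.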

How the data were processed

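The 8 Affymetrix arrays have a single colour, with LN RNA of 1 pool on each. The authors read them with GeneChip Operating Software and computed log2 signal by RMA (robust multi-array averaging, named in the submitters' processing notes) in Partek Genomic Suite, and the deposited log2 values are used as they are. They run from 2.42 to 14.40. Of 22690 probe sets, 64 controls were left out and 22626 tested, 20380 of them paired with 1 gene, 691 with several and 1555 with none. The number of arrays limits the precision. An additive fit with terms for genotype and treatment (4 residual degrees of freedom) gave the treatment differences and the overall genotype difference, for which a call needs an adjusted p under 0.05. Genotype differences within a treatment and interactions came from a fit with a mean for each of 6 groups, whose 2 residual degrees of freedom lie in the untreated pairs, and a call needs more than a 2-fold difference with an unadjusted p under 0.05, as in the study. Both used limma 3.58.1 in R 4.3.3 (lmFit, eBayes) over all probe sets tested, with Benjamini-Hochberg adjustment. Percentages of all genes use 1 probe set per gene. Named genes are the 10, up to 4 genes with the widest differences in each list discussed, the 3 most similar genes for the 3 widest-ranging members, and defining markers; *Fut4*, *Prox1*, *Csn2* and *Cd3e* were named for their roles. The 10 genes, the 21 lists and the tests were chosen with earlier results of these data known. The gene lists were refitted without WT CFA+PTX, an alternative chosen after seeing the data. The models were tested on simulated data. Plots were drawn with matplotlib 3.10.9.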

Additional observations from a re-analysis of the deposited data

How the results depend on the processing

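The 10 comparisons were recomputed under up to 21 alternatives, 8 of which left out 1 array each: no moderation, an intensity trend with robust fitting, quantile normalization again, median centring, centring on the endothelial genes, gland or adipocyte signal as a covariate, a filter on dim probe sets, other probe sets per gene, a replicate block and the other call rule. In 165 of 166 recomputed counts no gene was called; the exception was the CFA+PTX interaction, where the count ranged from 0 to 1 on leaving out arrays (*Selp*, −1.15 to −0.29). Of 1650 recomputed differences 12 changed sign while larger than their standard error in either fit. With the mean of all probe sets the *Cdh5* interaction with CFA was −0.19. After centring on the endothelial genes, CFA+PTX against untreated was −0.079 for *Icam1* and −0.0082 for *Cdh5*, CFA+PTX against CFA was −0.057 for *Fut7* and −0.031 for *Cdh5*, and the overall genotype difference of *Pecam1* was 0.0101; with the gland covariate it was 0.0258. Centring also moved the median of all genes by −0.20 in CFA+PTX against CFA and by 0.10 between genotypes. On leaving out arrays, genotype differences in untreated LN ranged from −0.12 to 0.14 for *Pecam1*, −0.36 to 0.32 for *Sele* and −0.0155 to 0.36 for *Vcam1*, the CFA difference of *Cd34* from −0.23 to 0.10 and the injected difference of *Selp* from −0.21 to 0.17. Sign changes on centring follow from subtracting the difference of the endothelial mean from every gene. The cause was not tested for the other sign changes.

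The replicate numbers of the untreated arrays were checked for pairing. The differences of replicate 1 from replicate 2 correlated between genotypes at r = 0.12 over probe sets, and 2 pairs cannot establish pairing. With the replicate block, no gene was called, and 2 of the 10 rather than 1 stood at an unadjusted p under 0.05 between untreated genotypes (lowest adjusted p = 0.657, limma). Within a treatment, genotype intervals that reached past 2-fold were those of *Madcam1*, *Selp* and *Sele*.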
